A study of Mus musculus with 30 samples.

Results

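Mouse digit tips collected 3 d after amputation were compared with digit tips collected at 0 h. The samples were chosen by the time point that the labels give for each mouse, which makes 6 of the 30 mice of the series (3 at 3 d, 3 at 0 h), and all 20321 genes of the expression table were used. All mice were adult C57Bl/6 males, as the study's methods state. In each of them the distal end of the terminal phalanx (P3, the bone under the nail) of hindlimb digit 3 was cut off on the right foot at a level from which the tip regenerates, with no sutures placed. The 0 h mice had the same amputation, so that 0 h stands for a cut digit and not for an uninjured one. How long after the cut they were sampled is not given in the sources used here. Each library holds the polyA RNA of a whole amputated digit, made with LM-Seq, a ligation-based RNA-seq protocol, and read from 1 end. The mice at 24 h (3 mice) and at 7 d (6 mice, some of them with a left foot) were used to place the changes at 3 d in time.

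A mouse can regrow the tip of a digit when the cut leaves the base of the nail in place. The wound is first entered by blood cells, and the epidermis migrates under the clot. Osteoclasts, large cells that arise by fusion of myeloid precursors, then erode the bone stump, secreting acid through a vacuolar ATPase and collagen-degrading enzymes such as cathepsin K. They are formed under the control of the cytokine RANKL, which osteoblast-lineage and other stromal cells present to its receptor RANK. The wound epidermis closes across the eroded bone, and a blastema of connective tissue cells forms from which new bone is made. Matrix metalloproteinases (MMPs) cut the matrix through which these cells move.

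Levels are given in CPM, expected counts scaled by edgeR to a common library size with TMM factors. The 6 libraries held 3177205 to 12773273 expected counts and 13613 to 15344 genes with a count. The labelled tissue was checked against markers of skin and bone: every mouse had high levels of the keratinocyte keratins, with 3443, 3682 and 3618 CPM at 0 h and 3296, 2639.9 and 2667 CPM at 3 d for Krt5, and counts of the bone matrix gene Ibsp, with 128, 237 and 56.0 CPM at 0 h and 458, 689 and 179 CPM at 3 d. Titles carry dates that fall into July to August and November to January, called the earlier and the later campaign here. The labels do not say what was done on these dates or that they mark batches. Mouse 3 at 0 h and mice 2 and 3 at 3 d belong to the earlier campaign and the other 3 mice to the later one. Of these 6 libraries, those of the earlier campaign held 3177205 to 6094615 expected counts and those of the later 9955035 to 12773273. A few libraries stood apart in their tissue makeup. Mouse 2 at 0 h had the highest sum of 14 skeletal muscle markers, 115 CPM against 8.16 and 8.48 CPM in the other 0 h mice, and the highest sum of 7 erythroid markers, 477 CPM against 5.60 to 212 CPM. Mouse 1 at 3 d had the lowest sum of 17 nail and hair keratins, 2277 CPM against 5557 to 13859.5 CPM. It was also the only 1 of the 6 with a high level of Krt71, a keratin of the hair follicle's inner root sheath (0.08, 0 and 0.16 CPM at 0 h and 41.9, 0 and 0 CPM at 3 d). Mouse 3 at 0 h had the highest 0 h sum of 23 immediate early genes, 3909 CPM against 2990.5 and 2795.3 CPM. Its sum of 29 inflammatory cytokines and chemokines was also the highest, 242 CPM against 187 and 182 CPM. Its sums of neutrophil and of acute phase genes were the lowest at 0 h. The title of this mouse shares its animal tag and date with a mouse at 12 h.

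Against 0 h, 76 of 13793 tested genes differed at 3 d at an adjusted p under 0.05 by edgeR (quasi-likelihood test, Benjamini-Hochberg adjustment), which is 0.551% of the genes. Of these, 67 were higher (0.486%) and 9 were lower (0.0653%), and 918 genes had an unadjusted p under 0.05. The proteases Mmp9, Mmp13 and Mmp3, their inhibitor Timp1, the cytokines Il6, Lif and Il1b, the calgranulins S100a8 and S100a9 and the osteoclast genes Ctsk, Atp6v0d2 and Dcstamp were among the genes that rose, and the AP-1 genes Fos, Fosb and Jun among those that fell. The median log2 fold change of the 67 higher genes was 2.20, and 39 of them rose by at least 2 on the log2 scale. For each of the 76 genes the 3 mice at 3 d lay entirely above or entirely below the 3 mice at 0 h. Over all tested genes, 8.16% had the 3 d mice all above and 7.08% all below the 0 h mice. The 76 genes were picked by a test on these same mice, so their separation is no separate evidence. With a mouse left out the number of called genes was 31, 37 and 48 without mouse 1, 2 or 3 at 0 h, and 85, 41 and 47 without mouse 1, 2 or 3 at 3 d. In these 6 fits, 27 of the 76 genes kept an adjusted p under 0.05 each time. In a whole digit, more cells of a type and more RNA per cell cannot be told apart.

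**Figure D1:**
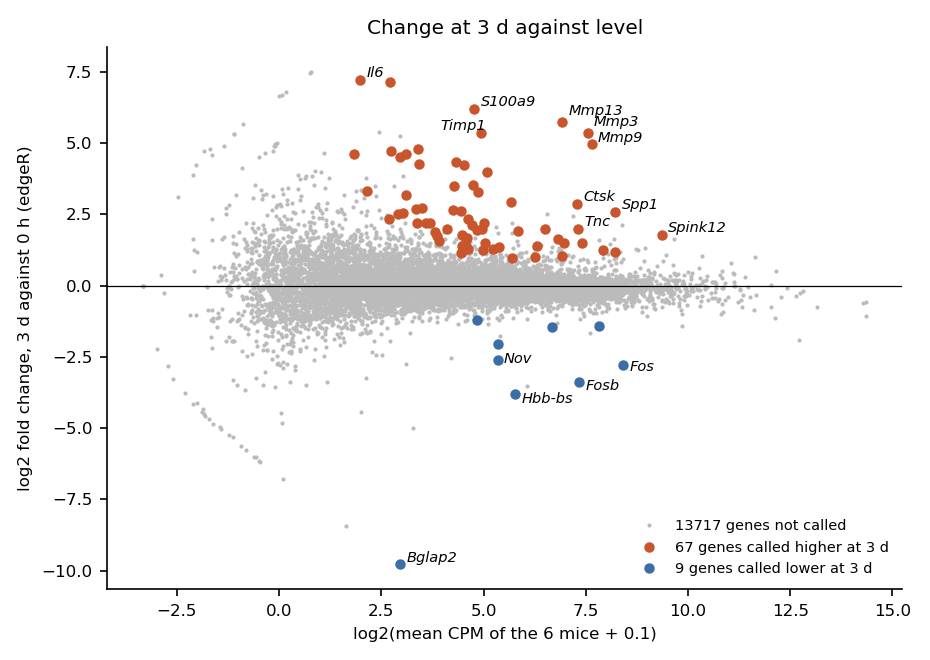
Log2 fold change at 3 d against 0 h for each of 13793 tested genes (vertical axis, edgeR), against log2 of the mean CPM of the 6 mice plus 0.1 (horizontal axis). Coloured points are the 76 genes with an adjusted p under 0.05, of which 67 lie above the zero line and 9 below it, mostly at middle levels.

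**Figure D2:**
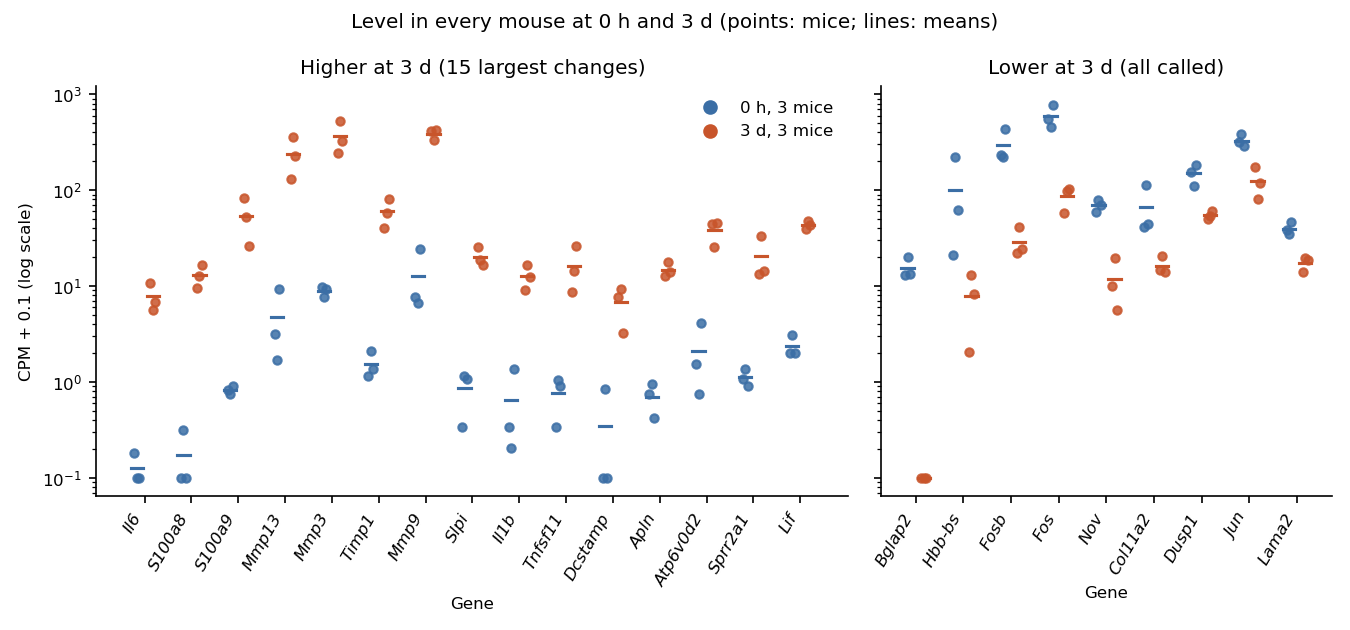
CPM plus 0.1 on a log scale (vertical axis) for the 15 genes that rose most and the 9 that fell (horizontal axis), with a point for each of the 3 mice at 0 h (blue) and 3 d (orange) and a line at the mean. The genes were picked from these same mice, and in each gene shown the 3 blue points and the 3 orange points do not overlap.

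Proteases and their inhibitors included several of the largest changes. Of 21 tested members of this list, 5 rose (Mmp3, Mmp9, Mmp13, Timp1 and Adamts4), none fell, and the median log2 fold change was 1.05, beside -0.01 over all tested genes. The counts in this and the later lists stand beside 0.486% of all tested genes that rose and 0.0653% that fell. The lists were chosen with earlier results of these data known, so these counts are a description and not a test. Mmp13, a collagenase of bone and wound stroma, measured 3.04, 1.6 and 9.28 CPM at 0 h and 131, 354 and 228 CPM at 3 d. The 3 d mice were all far above the 0 h mice, a 51.3-fold difference of the means (log2 fold change 5.75, standard error 0.80, edgeR adjusted p = 0.000167). Mmp3, or stromelysin, which cuts many matrix proteins and activates other MMPs, measured 9.68, 7.57 and 9.28 CPM at 0 h and 246, 520.4 and 327 CPM at 3 d. It was tightly grouped at 0 h and 41.2-fold higher at 3 d (log2 fold change 5.36, standard error 0.81, edgeR adjusted p = 0.000466). Mmp3 shares 14.6% of its 31-base words with Mmp10, and the sum of both genes was 39.3-fold higher. Mmp9 (chr2:164940780-164955850, GRCm38), a gelatinase made by osteoclasts and by leukocytes, measured 7.52, 6.61 and 24.2 CPM at 0 h and 414, 329.99 and 422 CPM at 3 d. Its rise was 30.5-fold (log2 fold change 4.96, standard error 0.59, edgeR adjusted p = 2.13e-05), although mouse 3 at 0 h had more than the other 0 h mice. Timp1 (chrX:20870166-20874735), which blocks most MMPs, measured 1.04, 2.03 and 1.28 CPM at 0 h and 40.0, 57.9 and 81.6 CPM at 3 d. It had the lowest adjusted p of all genes (edgeR, 3.11e-06) at a log2 fold change of 5.35 (standard error 0.56), with no overlap of the mice.

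The rise of Mmp3, Mmp9, Mmp13 and Timp1 held in each of the 6 fits that left out a mouse, while Adamts4, an aggrecan-cutting protease, lost its call without mouse 1 or mouse 2 at 0 h (log2 fold change 2.62, edgeR adjusted p = 0.0136, up to 0.167 in those fits). Other members of the list did not pass the test. The membrane-bound collagenase Mmp14, which activates Mmp2, measured 83.8, 102 and 75.4 CPM at 0 h and 134, 205 and 145 CPM at 3 d (log2 fold change 0.89, edgeR adjusted p = 0.0616). Macrophage elastase Mmp12 had a log2 fold change of 3.33 (edgeR adjusted p = 0.347) and the urokinase receptor Plaur 1.76 (edgeR adjusted p = 0.0636). For these 3 genes the 3 d mice all lay above the 0 h mice.

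Promoter sequences were examined because the AP-1 genes Fos, Fosb and Jun fell while MMP genes, known AP-1 targets, rose. The AP-1 family member Jdp2 also rose, and the part of AP-1 in these changes was not tested. RefSeq promoters (GRCm38.p6, 250 bases before to 50 after each start) were found for 59 of the 76 genes. Mmp9, Adamts4, Atp6v0d2 and Dcstamp were among the genes without a promoter and could not be searched. The AP-1 motif TGANTCA, which is its own reverse complement, was found in 9 of the 52 higher genes with a promoter (17.3%): Lif, Mmp3, Il6, Ccl9, Sele, Selp, Ifitm3, Tnfaip6 and Mmp13. Of the 7 lower genes with a promoter 1 had it (14.3%, Hbb-bs). The share was 6.92% of the tested genes with a promoter and 8.97% of all 27025 genes with a promoter. The TATA box TATAAA, searched on both strands, was found in 28.8% of the higher genes against 9.87% of the tested and 15.7% of all genes with a promoter. The CCAAT box CCAAT was found in 21.2% against 42.6% and 41.1%, and the cell cycle element TTTGAA in 15.4% against 14.6% and 20.2%. TGANTCA and TTTGAA can overlap by the letters TGAA. In Ccl9, TATA letters of both strands run together. A match is a description of letters and not a site of binding. Shown are the 160 bases before and 10 after the start of 5 higher genes with an AP-1 match and of Fos, which has none there, 5′ to 3′ in the direction of the gene, with AP-1 and TATA matches in capitals.
Mmp3 (chr9:7445662-7445831, plus strand): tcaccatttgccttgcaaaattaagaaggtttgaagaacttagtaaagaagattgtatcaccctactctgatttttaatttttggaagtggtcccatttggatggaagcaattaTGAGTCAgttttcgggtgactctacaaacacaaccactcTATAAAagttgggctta
Mmp13 (chr9:7272354-7272523, plus strand): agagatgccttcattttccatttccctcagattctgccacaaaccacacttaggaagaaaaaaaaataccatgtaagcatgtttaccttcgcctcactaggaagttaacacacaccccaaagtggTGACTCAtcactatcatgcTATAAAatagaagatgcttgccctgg
Ccl9 (chr11:83578627-83578796, minus strand): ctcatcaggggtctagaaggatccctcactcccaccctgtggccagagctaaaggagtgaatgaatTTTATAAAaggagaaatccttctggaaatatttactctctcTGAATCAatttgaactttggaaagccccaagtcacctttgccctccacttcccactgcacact
Sele (chr1:164048074-164048243, plus strand): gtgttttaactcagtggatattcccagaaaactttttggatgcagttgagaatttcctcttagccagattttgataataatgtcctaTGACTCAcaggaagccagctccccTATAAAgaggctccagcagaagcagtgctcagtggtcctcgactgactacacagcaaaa
Selp (chr1:164115104-164115273, plus strand): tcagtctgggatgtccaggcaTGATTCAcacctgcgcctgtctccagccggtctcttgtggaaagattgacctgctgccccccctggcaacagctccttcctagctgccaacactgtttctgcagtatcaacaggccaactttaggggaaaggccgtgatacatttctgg
Fos (chr12:85473730-85473899, plus strand): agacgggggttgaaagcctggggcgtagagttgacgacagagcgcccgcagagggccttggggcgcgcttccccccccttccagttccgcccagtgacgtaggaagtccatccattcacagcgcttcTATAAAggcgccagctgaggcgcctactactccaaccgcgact

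The log2 fold changes of the genes shown, in that order, were 5.36, 5.75, 3.30, 2.0, 3.55 and -2.79. Mmp3 and Mmp13 lie on chromosome 9, and Sele and Selp lie near each other on chromosome 1. In Mmp3, Mmp13 and Sele the AP-1 letters stand a short way before the TATA letters near the start.

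Among osteoclast markers, 4 of 14 tested rose at 3 d (Ctsk, Atp6v0d2, Dcstamp and, shared with the proteases, Mmp9), none fell, and the median log2 fold change was 1.20 over the list. Of all tested genes 0.486% rose. The sum of all 16 markers was 331 to 433 CPM at 0 h and 1052 to 1424 CPM at 3 d. Ctsk (chr3:95499256-95509362, GRCm38), the collagen-degrading cathepsin of the osteoclast, measured 29.8, 41.1 and 40.8 CPM at 0 h and 373, 217 and 231 CPM at 3 d. Every 3 d mouse was far above every 0 h mouse, a 7.35-fold difference (log2 fold change 2.88, standard error 0.36, edgeR adjusted p = 3.4e-05). Atp6v0d2, the osteoclast subunit of the vacuolar ATPase, which is also needed for fusion, measured 1.44, 0.64 and 4 CPM at 0 h and 44.0, 25.6 and 44.9 CPM at 3 d, an 18.8-fold difference without overlap (log2 fold change 4.33, standard error 0.73, edgeR adjusted p = 0.0014). Dcstamp, a membrane protein without which osteoclast precursors do not fuse, measured 0, 0.746 and 0 CPM at 0 h and 7.67, 9.11 and 3.16 CPM at 3 d. It was near 0 in the 0 h mice, with 0, 7 and 0 counts, and its call was lost in 5 of the 6 fits without a mouse (log2 fold change 4.62, edgeR adjusted p = 0.048, up to 0.357).

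Outside the list, Slc9b2, a sodium/proton antiporter known from osteoclasts, measured 4, 2.35 and 2.4 CPM at 0 h and 29.9, 14.1 and 13.8 CPM at 3 d (log2 fold change 2.72, standard error 0.58, edgeR adjusted p = 0.0196, up to 0.15 without a mouse). The AP-1 family member Jdp2, known to act in osteoclast differentiation, rose by 1.62 on the log2 scale (edgeR adjusted p = 0.0209, up to 0.179 without a mouse). Tartrate-resistant acid phosphatase Acp5, the classic stain of osteoclasts, measured 11.9, 8.42 and 25.9 CPM at 0 h and 65.4, 40.6 and 86.0 CPM at 3 d. Its mice did not overlap either, but it missed the threshold (log2 fold change 2.08, standard error 0.56, edgeR adjusted p = 0.107). The transcription factor Nfatc1, the master regulator of the lineage, had a log2 fold change of 1.17 (edgeR adjusted p = 0.0616) and the ATPase subunit Tcirg1 1.23 (edgeR adjusted p = 0.248). RANK itself, Tnfrsf11a, did not pass (edgeR adjusted p = 0.35). The integrin Itgb3 measured 21.0, 37.3 and 27.4 CPM at 0 h and 78.9, 39.7 and 33.3 CPM at 3 d, and its mice overlapped.

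The ligand of RANK rose as well. Tnfsf11 (chr14:78277445-78308043, GRCm38), which encodes RANKL, measured 0.24, 0.959 and 0.8 CPM at 0 h and 8.55, 14.1 and 26.0 CPM at 3 d. The counts at 0 h were 3, 9 and 5, and the highest 0 h mouse was below the lowest 3 d mouse, a 24.3-fold difference (log2 fold change 4.62, standard error 0.73, edgeR adjusted p = 0.00076) that held in all 6 fits without a mouse. Tnfrsf11b, the decoy receptor osteoprotegerin, measured 7.12, 7.14 and 5.28 CPM at 0 h and 8.36, 6.76 and 3.4 CPM at 3 d and overlapped (log2 fold change -0.06, edgeR adjusted p = 1). The macrophage growth factor Csf1, also required for osteoclasts, measured 23.2, 22.1 and 26.1 CPM at 0 h and 42.0, 45.0 and 49.3 CPM at 3 d (log2 fold change 0.93, edgeR adjusted p = 0.286), and its receptor Csf1r 21.6, 21.5 and 27.0 CPM at 0 h and 31.1, 52.0 and 66.8 CPM at 3 d (log2 fold change 1.09, edgeR adjusted p = 0.713). Neither passed the test.

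Osteoblast and osteocyte genes did not move in a common direction. Of 20 tested, 2 rose (Tnfsf11 and Pdpn), 1 fell (Bglap2) and the median log2 fold change was -0.02. Bglap2 (chr3:88377736-88378699, GRCm38), an osteocalcin gene of mature osteoblasts, measured 12.9, 20.1 and 13.3 CPM at 0 h and 0, 0 and 0 CPM at 3 d, which is 161, 189 and 83 counts against none. Against a floor of 3 counts in each 3 d library it was at least 24.3-fold lower (edgeR adjusted p = 0.000466). Since 95.2% of its 31-base words are also found in Bglap and reads can be split between the copies, Bglap, Bglap2 and Bglap3 were summed: they measured 29.4, 37.2 and 32.6 CPM at 0 h and 2.46, 1.76 and 4.86 CPM at 3 d, a 10.9-fold lower level without overlap (two-sided exact permutation p = 0.1, the smallest that 3 mice against 3 allow). Ibsp, bone sialoprotein, did not pass (log2 fold change 1.65, edgeR adjusted p = 0.176), and Runx2 and Sp7, the transcription factors of the lineage, had log2 fold changes of 0.52 and 0.28.

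Of 24 tested inflammatory cytokines and chemokines, 6 rose (Il6, Il1b, Lif, Cxcl1, Ccl9 and Ptges), against 0.486% of all tested genes. None fell, and the median log2 fold change was 3.25. Many of these genes are low at 0 h, and the median log2 fold change of the list inflammatory cytokines and chemokines was 1.33 on the log2(TPM + 1) scale. Il6 (chr5:30013114-30019981, GRCm38), the main inducer of the acute phase, measured 0.08, 0 and 0 CPM at 0 h and 10.7, 5.58 and 6.8 CPM at 3 d. Only 1 count was found in the 3 mice at 0 h, and against a floor of 3 counts in each of these libraries the level at 3 d was at least 22.2-fold higher (edgeR adjusted p = 0.00658, and up to 0.0766 without mouse 1 or mouse 2 at 0 h). Lif, a cytokine of the same family, measured 1.92, 2.98 and 1.92 CPM at 0 h and 39.3, 47.9 and 43.7 CPM at 3 d. Its mice lay close together at both times and 19.2-fold apart (log2 fold change 4.24, standard error 0.56, edgeR adjusted p = 8.95e-05). Il1b, released by activated myeloid cells, measured 0.24, 0.107 and 1.28 CPM at 0 h and 8.94, 16.5 and 12.4 CPM at 3 d (log2 fold change 4.71, standard error 1.05, edgeR adjusted p = 0.028), with 12 counts in all at 0 h, and lost its call in 4 of the 6 fits without a mouse (up to 0.237).

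Among chemokines, Ccl9, which draws myeloid cells and osteoclast precursors through the receptor Ccr1, measured 3.52, 5.97 and 6.72 CPM at 0 h and 41.6, 50.5 and 65.8 CPM at 3 d, all 3 d mice above all 0 h mice (log2 fold change 3.30, standard error 0.54, edgeR adjusted p = 0.00097). Ccr1 itself measured 1.44, 2.03 and 1.44 CPM at 0 h and 11.1, 14.4 and 20.2 CPM at 3 d (log2 fold change 3.19, edgeR adjusted p = 0.047, up to 0.296 without a mouse). Cxcl1, a neutrophil attractant, measured 2, 1.49 and 9.76 CPM at 0 h and 145, 14.4 and 31.1 CPM at 3 d. Mouse 1 at 3 d was far above the other 3 d mice. The log2 fold change was 3.97 (edgeR adjusted p = 0.0383), and the call was lost without mouse 1 at 3 d (0.303) and without mouse 1 or 2 at 0 h (0.322 and 0.275). The difference of mean log2(CPM + 1) of Cxcl1 was 1.05 in the mice of the earlier campaign and 5.74 in those of the later. Cxcl2 and Cxcl5, which act on the same receptor, did not pass, with log2 fold changes of 5.26 and 3.52 (edgeR adjusted p = 0.0512 and 0.178). The chemokine receptor Cxcr4 rose by 2.54 on the log2 scale and the epithelial chemokine Cxcl14 by 1.66 (edgeR adjusted p = 0.0331 and 0.048), but Cxcr4 lost its call in 3 and Cxcl14 in all of the 6 fits without a mouse (up to 0.307 and 0.336). In prostaglandin synthesis, the enzyme Ptges rose by 1.37 (edgeR adjusted p = 0.0424, up to 0.494 in the 4 fits without a mouse that lost the call). The cyclooxygenase Ptgs2 measured 9.12, 4.58 and 70.4 CPM at 0 h and 114, 205 and 156 CPM at 3 d, without overlap, and did not pass (log2 fold change 2.52, edgeR adjusted p = 0.371). Its level in mouse 3 at 0 h was the highest of the 0 h mice.

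Calgranulins, calcium-binding proteins stored in neutrophils and also made by wounded epidermis, rose from almost nothing. S100a9 measured 0.72, 0.64 and 0.8 CPM at 0 h and 82.8, 52.9 and 26.0 CPM at 3 d, a 74.8-fold difference (log2 fold change 6.22, edgeR adjusted p = 0.000952). S100a8, its partner, measured 0, 0.213 and 0 CPM at 0 h and 9.34, 12.6 and 16.5 CPM at 3 d. With 0, 2 and 0 counts at 0 h, it was at least 37.0-fold higher against the floor of 3 counts (edgeR adjusted p = 0.00362, and 0.0664 without mouse 1 at 0 h). They were the only 2 of 15 tested neutrophil markers to pass, and the list's median log2 fold change was 0.99. Log2 fold changes were above 0 for 10 of the 15, and the lowest was -2.81. The sum over 19 genes was 30.6 to 45.8 CPM at 0 h and 101 to 167 CPM at 3 d. S100a9 and S100a8, with means of 53.9 and 12.8 CPM at 3 d, are a large part of that sum. The part of leukocytes in the change of other genes was not tested. The granule genes Ngp, Camp and Ltf, which define maturing neutrophils, had no count in any of the 6 mice. The neutrophil chemokine receptor Cxcr2 overlapped between the times.

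Slpi, a secreted inhibitor of neutrophil elastase that epithelia and leukocytes make, measured 0.24, 1.1 and 0.96 CPM at 0 h and 25.6, 18.5 and 16.5 CPM at 3 d, without overlap (log2 fold change 4.80, standard error 0.78, edgeR adjusted p = 0.00097). It was the only 1 of 17 tested acute phase and antimicrobial genes to pass, at a list median of 1.65. Lipocalin Lcn2 measured 0.64, 0.426 and 1.28 CPM at 0 h and 3.74, 4.7 and 14.3 CPM at 3 d (log2 fold change 3.29, edgeR adjusted p = 0.0942). Complement factor Cfb had a log2 fold change of 1.65 (edgeR adjusted p = 0.0804), but 75.5% of its 31-base words occur in the overlapping gene model Gm20547. The serpin Serpina3n, outside the list, rose by 2.95 on the log2 scale (edgeR adjusted p = 0.0228, up to 0.188 without a mouse), and summed with its close copy Serpina3g it was 7.29-fold higher.

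None of 24 tested monocyte and macrophage markers passed, and their median log2 fold change was 0.98. Their sum was 368 to 426 CPM at 0 h and 393 to 696 CPM at 3 d, with mouse 1 at 3 d inside the range of the 0 h mice. In 11 of the 24 every 3 d mouse lay above the 0 h mice, against 8.16% of all tested genes. These 11 included the receptors Ccr2 and Cd14 and the scavenger receptor Msr1, with log2 fold changes of 1.80, 1.49 and 1.88 (edgeR adjusted p = 0.529, 0.289 and 0.248). The hemoglobin scavenger receptor Cd163 was the only 1 of the 24 with every 3 d mouse below, against 7.08% of all tested genes. It measured 22.3, 44.2 and 29.9 CPM at 0 h and 11.9, 21.7 and 14.3 CPM at 3 d (log2 fold change -1.02, edgeR adjusted p = 0.846). The other 12, such as Mrc1, C1qa and Trem2, overlapped. Integrin Itgb2, the common beta chain of leukocyte integrins, measured 9.52, 9.17 and 11.2 CPM at 0 h and 28.3, 34.1 and 40.3 CPM at 3 d (log2 fold change 1.78, edgeR adjusted p = 0.0373, up to 0.216 without a mouse). H2-Aa, a chain of MHC class II, measured 13.8, 13.2 and 15.7 CPM at 0 h and 28.5, 38.2 and 37.6 CPM at 3 d (log2 fold change 1.29, edgeR adjusted p = 0.0196, up to 0.146 without a mouse). It was the only 1 of 11 genes of the MHC class II and Langerhans cell list to pass, at a median of 1.23. H2-Eb1, H2-Ab1 and Cd74 had log2 fold changes of 1.17, 0.79 and 1.23 (edgeR adjusted p = 0.109, 0.41 and 0.345), with the 3 d mice above the 0 h mice in each. Among 7 tested T, B and mast cell markers none passed (median 0.21).

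Both selectins known from activated endothelium rose. P-selectin Selp, which slows leukocytes on the vessel wall, measured 3.76, 3.62 and 5.28 CPM at 0 h and 42.4, 39.4 and 65.1 CPM at 3 d. The groups were far apart (log2 fold change 3.55, standard error 0.65, edgeR adjusted p = 0.00362, and 0.0563 without mouse 1 at 0 h). E-selectin Sele measured 9.04, 8.63 and 20.0 CPM at 0 h and 50.8, 40.0 and 57.8 CPM at 3 d (log2 fold change 2.0, standard error 0.46, edgeR adjusted p = 0.0373, up to 0.303 without a mouse). Another gene model, Gm16548, overlaps 14.1% of the exon bases of Selp. Apln, a peptide hormone of sprouting endothelium, measured 0.64, 0.853 and 0.32 CPM at 0 h and 12.5, 17.6 and 13.8 CPM at 3 d, a 24.2-fold difference (log2 fold change 4.51, standard error 0.74, edgeR adjusted p = 0.00097). None of the 16 endothelial markers passed, at a median of 0.47. Vascular cadherin Cdh5 had a log2 fold change of 1.34 (edgeR adjusted p = 0.104), and the sum of the list was 273 to 291 CPM at 0 h and 329 to 432 CPM at 3 d.

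Genes of the provisional matrix and of TGF-beta signalling included 7 that rose among 28 tested (Spp1, Pdpn, Tnc, Cthrc1, Inhba, Col12a1 and Tgfbi). The share over all tested genes was 0.486%. None of the list fell, and its median was 0.53. Spp1, or osteopontin, which anchors cells to mineral and matrix, measured 65.9, 101 and 87.4 CPM at 0 h and 504, 506 and 527 CPM at 3 d. The 3 d mice lay close together and far above the 0 h mice (log2 fold change 2.60, standard error 0.39, edgeR adjusted p = 0.000466). Another gene model, Gm42793, overlaps 18.8% of its exon bases, and reads of both cannot be told apart there. Tnc, tenascin C, an adhesion-modulating protein of healing wounds, measured 62.2, 57.9 and 73.3 CPM at 0 h and 248, 327 and 189 CPM at 3 d (log2 fold change 1.98, standard error 0.34, edgeR adjusted p = 0.00187). Cthrc1, a secreted protein of activated fibroblasts, measured 7.12, 7.78 and 2.56 CPM at 0 h and 21.0, 27.3 and 18.5 CPM at 3 d (log2 fold change 1.89, standard error 0.35, edgeR adjusted p = 0.00362). Spp1, Tnc, Cthrc1 and Pdpn, the lymphatic and fibroblast glycoprotein podoplanin (log2 fold change 2.20, edgeR adjusted p = 0.000898), were called in all 6 fits without a mouse.

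The activin subunit Inhba rose by 1.66, the fibril-associated collagen Col12a1 by 1.51 and the TGF-beta-induced adhesion protein Tgfbi by 1.24 on the log2 scale (edgeR adjusted p = 0.0453, 0.048 and 0.0209, and up to 0.235, 0.579 and 0.18 without a mouse). Periostin, Postn, measured 241, 264 and 243 CPM at 0 h and 274, 1055 and 483 CPM at 3 d (log2 fold change 1.27, edgeR adjusted p = 0.364), with mouse 2 at 3 d far above the rest. The collagens Col3a1 and Col1a1 overlapped between the times (log2 fold changes 1.02 and 0.46). Over the 10 fibroblast markers none passed and the median was 0.41. The Wnt antagonists Sfrp4 and Wif1 rose by 2.19 and 1.40 (edgeR adjusted p = 0.016 and 0.0424, up to 0.163 and 0.579 without a mouse). The related Sfrp2 measured 37.5, 15.2 and 13.6 CPM at 0 h and 50.3, 98.4 and 95.4 CPM at 3 d, without overlap, and did not pass (log2 fold change 1.86, edgeR adjusted p = 0.468).

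A gene of the cornified envelope rose. Sprr2a1, a small proline-rich protein of stressed epidermis, measured 0.96, 1.28 and 0.8 CPM at 0 h and 13.2, 33.5 and 14.3 CPM at 3 d (log2 fold change 4.28, standard error 0.76, edgeR adjusted p = 0.00257). It shares 96.9% of its 31-base words with Sprr2a2. Summed, the copies measured 1.92, 2.56 and 1.60 CPM at 0 h and 26.3, 33.5 and 28.7 CPM at 3 d, a 14.6-fold difference (two-sided exact permutation p = 0.1, the smallest possible). It was the only 1 of 20 tested wound keratin and small proline-rich genes to pass, at a median of 0.95. Sprr2b measured 17.7, 17.9 and 19.7 CPM at 0 h and 32.1, 141 and 81.1 CPM at 3 d (edgeR adjusted p = 0.176), and the wound keratin Krt6b 821, 712 and 1023 CPM at 0 h and 2716, 1556 and 982 CPM at 3 d, with the highest value in mouse 1 at 3 d (edgeR adjusted p = 0.7). Other genes share 31.9% of the 31-base words of Sprr2b (most with Sprr2a1) and 57.0% of those of Krt6b (most with Krt6a), so reads can be split. The epidermal protease inhibitor Spink12 rose by 1.80 on the log2 scale (edgeR adjusted p = 0.015, up to 0.155 without a mouse).

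None of 13 keratinocyte markers passed, at a median of -0.32. Krt1 and Krt10, the keratin pair of differentiated epidermis, had log2 fold changes of -1.06 and -0.59 (edgeR adjusted p = 0.523 and 0.805), and for both the 3 d mice all lay below the 0 h mice. The sum of the list was 90414 to 103222 CPM at 0 h and 50635 to 76757 CPM at 3 d. The sums of nail and hair keratins overlapped between the times, and none of 14 passed (median 0.59). The lists of adipocyte (10 tested, median -0.04), Schwann cell (10, -0.18) and melanocyte genes (2, -0.67) held no call.

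In the list of hypoxia and glycolysis genes, 2 of 23 rose, none fell, and the median was 0.74. Slc16a3, a lactate exporter, measured 2.24, 2.77 and 4.48 CPM at 0 h and 14.8, 62.6 and 28.9 CPM at 3 d (log2 fold change 3.50, standard error 0.48, edgeR adjusted p = 0.000155), called in all 6 fits without a mouse. Egln3, an oxygen-sensing prolyl hydroxylase that hypoxia induces, measured 88.9, 81.2 and 92.8 CPM at 0 h and 155, 390.2 and 202 CPM at 3 d (log2 fold change 1.51, standard error 0.33, edgeR adjusted p = 0.0209, up to 0.362 without a mouse). Both were highest in mouse 2 at 3 d. The same mouse had the highest values of Vegfa (80.6, 97.7 and 78.1 CPM at 0 h and 105, 310.3 and 128 CPM at 3 d), Slc2a1 (59.8, 49.8 and 87.7 CPM at 0 h and 91.8, 291 and 114 CPM at 3 d) and Car9 (0.96, 0.64 and 0 CPM at 0 h and 2.16, 14.7 and 7.28 CPM at 3 d), targets of the hypoxia factor HIF that did not pass (edgeR adjusted p = 0.126, 0.0894 and 0.289).

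Immediate early genes are transcribed rapidly and briefly upon stimulation. Of 23 tested, 4 fell at 3 d (Fos, Fosb, Jun and Dusp1), none rose, and the median log2 fold change was -0.61. Fos, an AP-1 subunit, measured 556, 455 and 779.9 CPM at 0 h and 57.9, 98.4 and 104 CPM at 3 d. Every 0 h mouse was far above every 3 d mouse, and the level was 6.89-fold lower (log2 fold change -2.79, standard error 0.49, edgeR adjusted p = 0.00216). Its relative Fosb measured 231, 223 and 435 CPM at 0 h and 21.8, 41.1 and 24.0 CPM at 3 d and was 10.2-fold lower (log2 fold change -3.37, standard error 0.54, edgeR adjusted p = 0.000846). Jun, the partner of both in AP-1, measured 316, 385 and 288 CPM at 0 h and 174, 80.2 and 119 CPM at 3 d (log2 fold change -1.40, standard error 0.29, edgeR adjusted p = 0.0132), and the MAP kinase phosphatase Dusp1 156, 111 and 182 CPM at 0 h and 49.5, 53.8 and 60.9 CPM at 3 d (log2 fold change -1.45, standard error 0.34, edgeR adjusted p = 0.0381). Fos and Fosb kept their call without any 1 mouse. Jun lost it without mouse 2 at 0 h or mouse 2 or 3 at 3 d (up to 0.155), and Dusp1 in each of the 6 fits (up to 0.237).

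Some other genes of the list were lower in every 3 d mouse without passing. Egr1 measured 285, 283 and 315 CPM at 0 h and 61.3, 80.5 and 139 CPM at 3 d (log2 fold change -1.65, edgeR adjusted p = 0.084), Atf3 14.3, 10.7 and 68.3 CPM at 0 h and 4.62, 5.58 and 5.83 CPM at 3 d (log2 fold change -2.54, edgeR adjusted p = 0.371) and Btg2 214, 204 and 265 CPM at 0 h and 187, 67.6 and 96.9 CPM at 3 d (log2 fold change -0.95, edgeR adjusted p = 0.416), each without overlap. The AP-1 subunits Junb and Fosl2 had log2 fold changes of -0.28 and 0.23.

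The remaining genes that fell belong to matrix and blood. Col11a2, a chain of a cartilage collagen, measured 41.1, 113 and 44.0 CPM at 0 h and 14.4, 20.3 and 13.8 CPM at 3 d (log2 fold change -2.04, standard error 0.41, edgeR adjusted p = 0.0129), with its highest value in mouse 2 at 0 h, without which the adjusted p was 0.257. The call was also lost without mouse 1 or 3 at 3 d. Nov, or Ccn3, a matricellular protein of the CCN family, measured 59.6, 78.9 and 69.8 CPM at 0 h and 9.83, 19.4 and 5.58 CPM at 3 d (log2 fold change -2.60, standard error 0.59, edgeR adjusted p = 0.0322, up to 0.21 without a mouse). Lama2, the laminin chain of muscle and nerve basement membranes, measured 38.1, 35.2 and 45.9 CPM at 0 h and 14.0, 19.4 and 18.5 CPM at 3 d (log2 fold change -1.21, standard error 0.28, edgeR adjusted p = 0.0362, up to 0.231 without a mouse). Both were lower in every 3 d mouse. Hbb-bs, an adult beta-globin, measured 21.0, 220.2 and 62.7 CPM at 0 h and 1.97, 12.9 and 8.26 CPM at 3 d (log2 fold change -3.82, standard error 0.78, edgeR adjusted p = 0.0129). The level varied widely among the 0 h mice. Without mouse 2 at 0 h, which had the highest erythroid and muscle sums, the adjusted p was 0.251, and the call was also lost without mouse 1 or 3 at 3 d. Summed with the near-identical Hbb-bt it was 14.5-fold lower. Hbb-bs was the only 1 of 5 erythroid genes to pass, at a median of -3.82. Hba-a2 and Alas2 had log2 fold changes of -3.51 and -3.24 (edgeR adjusted p = 0.0931 and 0.428). Other genes share 92.6% of the 31-base words of Hba-a2, most with Hba-a1. None of 6 skeletal muscle genes passed (median -1.96). The part of blood in the changes of other genes was not tested.

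**Figure D3:**
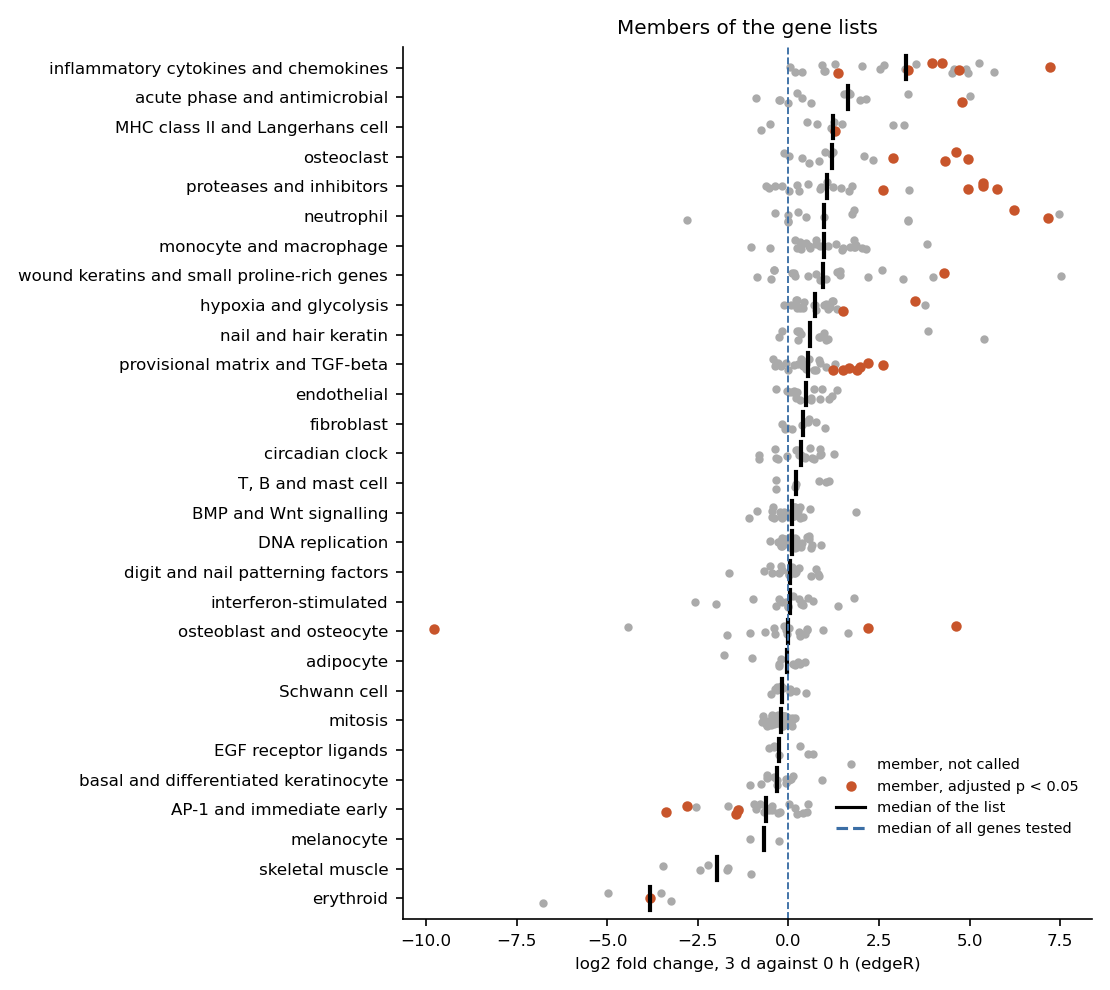
Log2 fold change at 3 d against 0 h (horizontal axis, edgeR) of the tested members of each gene list (rows), with called members in orange and a line at the median of each list. Medians run from -3.82 for erythroid genes to 3.25 for inflammatory cytokines and chemokines, and the calls to the left of zero lie in the immediate early, erythroid and osteoblast lists.

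Several lists held no change that passed the test. The 42 mitosis genes had log2 fold changes from -0.73 to 0.17 (median -0.22), with 267, 321 and 286 CPM at 0 h and 247, 192 and 201 CPM at 3 d for the proliferation marker Mki67. The median of the 39 DNA replication genes was 0.09. Among 33 tested genes of BMP and Wnt signalling (median 0.10), Bmp4, a bone-inducing ligand of the nail and bone stroma, measured 20.0, 20.0 and 19.4 CPM at 0 h and 10.1, 7.93 and 9.71 CPM at 3 d (log2 fold change -1.09, edgeR adjusted p = 0.215), and the Wnt target Axin2 had a log2 fold change of -0.85 (edgeR adjusted p = 0.471), both lower in every 3 d mouse without passing. The 20 tested digit and nail patterning factors had a median of 0.05.

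Of the 76 called genes 41 were in none of the lists. Adrbk2 (GRK3, a kinase that silences receptors), Emb (the cell adhesion protein embigin), Basp1 (a membrane-bound signalling protein), Crispld2, Slc39a14 (a zinc and iron importer that IL-6 induces) and Fkbp1a (an immunophilin) were called in all 6 fits without a mouse. Basp1 measured 5.12, 6.72 and 3.52 CPM at 0 h and 34.9, 32.9 and 30.1 CPM at 3 d (log2 fold change 2.66, standard error 0.32, edgeR adjusted p = 2.85e-05). Slc39a14 measured 23.0, 19.7 and 29.3 CPM at 0 h and 77.1, 111 and 86.4 CPM at 3 d (log2 fold change 1.93, standard error 0.30, edgeR adjusted p = 0.000503). For Basp1 and Slc39a14 the mice of the 2 times were clearly apart. The hyaluronan-binding protein Tnfaip6 rose by 2.69 on the log2 scale, the NF-kappaB cofactor Bcl3 by 2.51, the lipase inhibitor Angptl4 by 3.32 and the interleukin 4 receptor Il4ra by 1.27 (edgeR adjusted p = 0.0292, 0.0449, 0.048 and 0.0168), each losing its call in 4 or more of the 6 fits without a mouse. The smallest rise among the 67 genes was that of Pgm2, a phosphoglucomutase (0.97, edgeR adjusted p = 0.0268).

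The neighbouring times were compared with the same 3 d mice, so that these comparisons share samples with the one above. Against 24 h, 9 genes differed (0.0653% of those tested, 903 at an unadjusted p under 0.05), all of them higher at 3 d. Slc9b2 rose by 5.49 on the log2 scale (standard error 0.77, edgeR adjusted p = 0.000682), from 0.467 ± 0.467 CPM (SD, n = 3) to 19.3 ± 9.19 CPM (SD, n = 3). Atp6v0d2 rose by 4.43 (standard error 0.76, edgeR adjusted p = 0.00843) from 1.85 ± 1.21 to 38.2 ± 10.9 CPM, and Mmp9 by 3.73 (standard error 0.55, edgeR adjusted p = 0.00104) from 29.3 ± 11.9 to 389 ± 51.0 CPM. The other 6 were Ctsk (3.36, edgeR adjusted p = 1.04e-05), Jdp2 (1.92), Kbtbd11 (1.81), Adrbk2 (1.72), the lysosomal glucuronidase Gusb (1.64) and the mitotic kinesin Kif23 (1.25). Kif23 had 40.7 CPM at 0 h, 16.4 at 24 h and 39.4 at 3 d, and its mean at 3 d was close to that at 0 h. Left out in turn, the mice at 24 h and 3 d gave 4 to 8 genes, with 5 without mouse 2 at 24 h, and 4 and 5 without mouse 2 or 3 at 3 d.

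From 3 d to 7 d, 2 genes differed (0.0145%), both higher at 7 d. Mice 1 and 2 at 7 d belong to the earlier campaign and mice 3 to 6 to the later one, while most 3 d mice belong to the earlier. Some digits at 7 d came from the left foot and all at 3 d from the right, and the part of the foot was not tested. Ctsk went from 274 ± 86.1 CPM (SD, n = 3) to 946 ± 290.03 CPM (SD, n = 6), a log2 fold change of 1.79 (standard error 0.32, edgeR adjusted p = 0.0303). Itgb3, the integrin with which osteoclasts attach to bone, went from 50.6 ± 24.7 to 219 ± 64.9 CPM, a log2 fold change of 2.09 (standard error 0.33, edgeR adjusted p = 0.00765). No gene was called without mouse 2 or mouse 3 at 3 d, 1 without mouse 1 or 5 at 7 d, 3 without mouse 6 and 6 without mouse 2 at 7 d.

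Over the 9 time points, the 67 higher genes had their highest mean at 7 d in 21 cases, at 3 d in 18 and at 24 h in 13. A mean was highest at 21 d for 6 of them, at 14 d for 4, at 3 h and at 6 h for 2 each and at 12 h for 1. These genes were picked as high at 3 d against 0 h, which favours a peak at 3 d and disfavours a peak at 0 h. Peak times were not counted over all tested genes. Mmp3 was highest at 24 h (809 CPM), at 364 CPM at 3 d and 11.4 CPM at 21 d. Lif and Il6 were highest at 24 h as well, with 148 and 46.8 CPM. Timp1, Mmp13 and Tnfsf11 were highest at 3 d, at 59.8, 238 and 16.2 CPM. Mmp9 and Ctsk were highest at 7 d, with 1142 and 946 CPM. Cthrc1 was highest at 14 d (142 CPM), and Tnc and Col12a1 at 21 d (475 and 785 CPM). Fos and Fosb were highest at 0 h, with 597 and 296 CPM, and both were already low before 3 d. Fos stood at 61.5 CPM at 6 h, 55.1 CPM at 24 h and 86.7 CPM at 3 d, and Fosb at 14.7, 16.3 and 29.0 CPM. Their means were lowest at 12 h, with 51.3 and 6.23 CPM, and reached 283 and 123 CPM at 21 d. Bglap2 had a mean of 0.885 CPM at 24 h. The order of neighbouring times was not tested apart from 24 h, 3 d and 7 d.

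**Figure D4:**
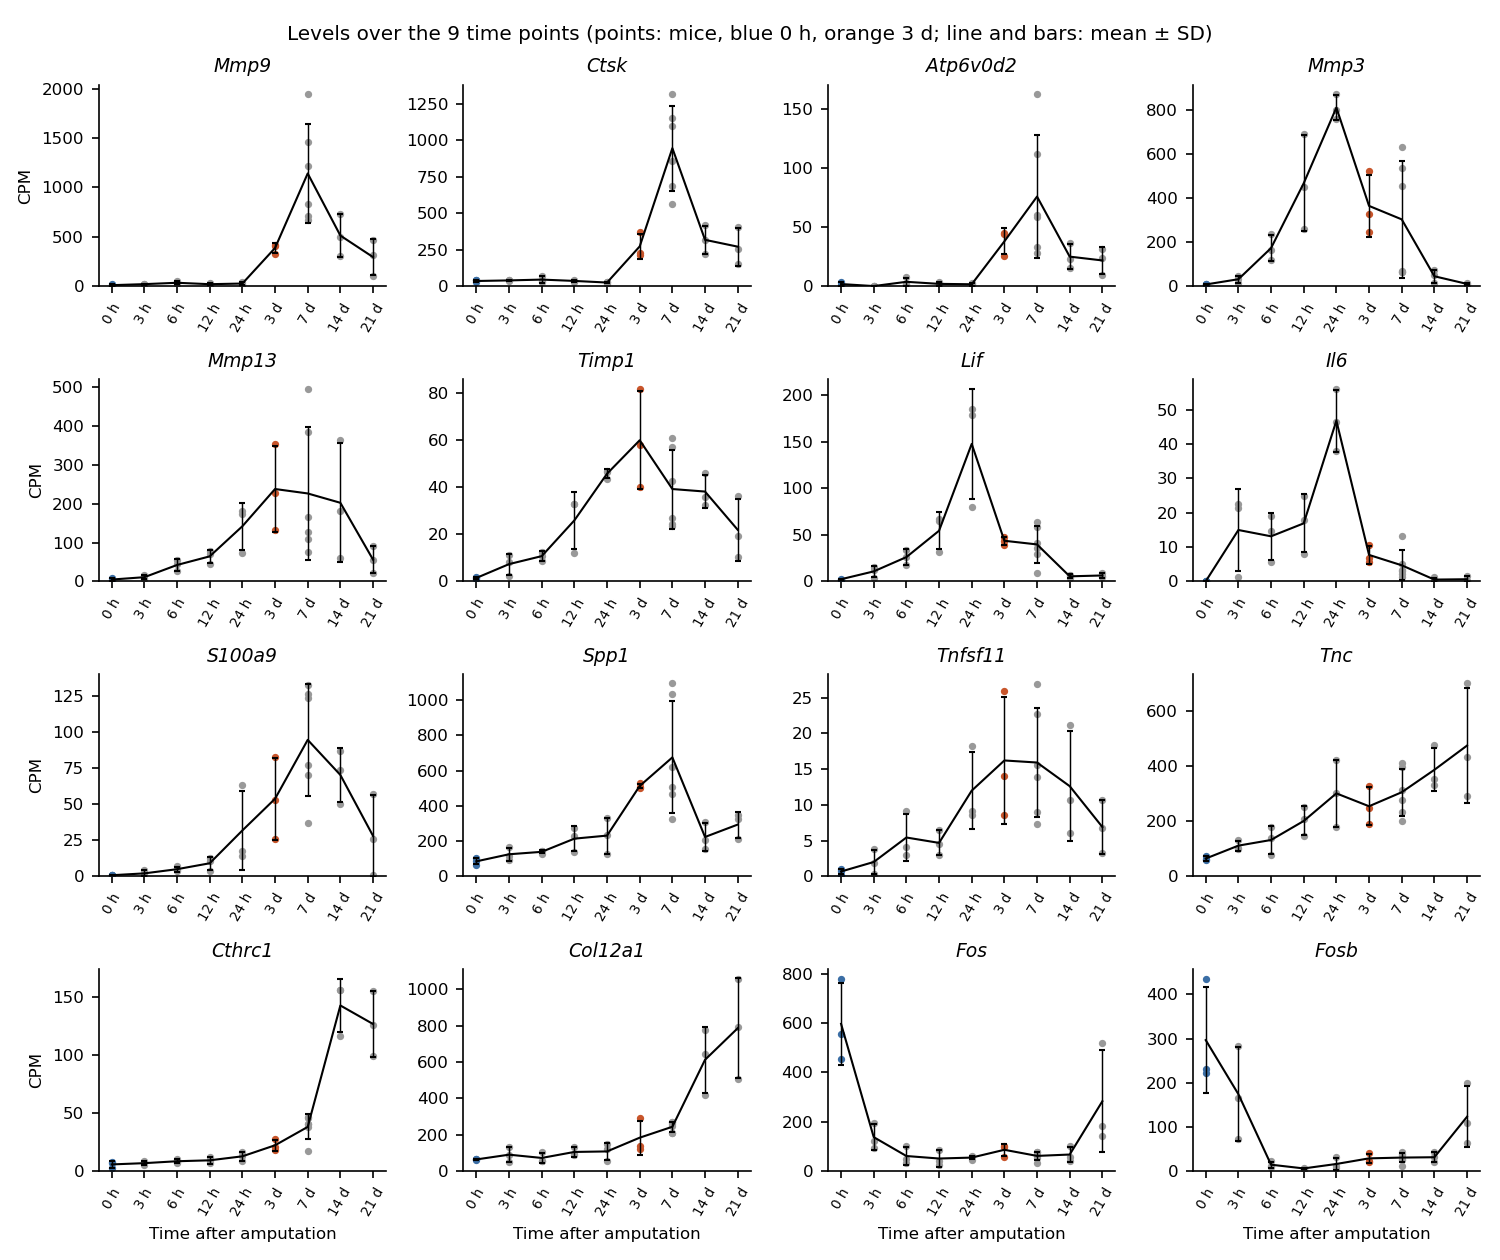
CPM (vertical axis) of 16 genes over the 9 time points after amputation (horizontal axis, not to scale in time), with a point for each mouse (blue 0 h, orange 3 d, grey others) and a line through the means with bars of 1 SD. Mmp9, Ctsk and Atp6v0d2 have higher means at 3 d and 7 d than at 24 h, while Mmp3, Lif and Il6 are highest at 24 h.

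Since 0 h and 3 d hold unequal numbers of mice of each campaign, the change was compared within campaigns. As the mice of the 2 times do not overlap in any of the 76 genes, their sign is the same in both campaigns by construction. Of the 76 genes, 66 differed by at least 1 in mean log2(CPM + 1) in both. The genes were picked from these same mice, so this count is no separate evidence. It was not taken over all tested genes. A test of the difference between the campaigns called no gene (0%, edgeR), with 494 genes at an unadjusted p under 0.05 and 1 gene called by DESeq2. Among the 76 genes, 6 had an unadjusted p under 0.05 in that test, Cxcl1, Hbb-bs, Cthrc1, Mmp9, Atp6v0d2 and Pcsk5. Mmp9 differed by 3.90 in the earlier and 5.69 in the later campaign, and Atp6v0d2 by 2.80 and 4.49. Cthrc1 differed by 2.72 and 1.38. With campaign as a covariate, 72 of the 76 genes kept an adjusted p under 0.05, and Wif1, Col12a1, Efemp2 and Angptl4 did not. Each campaign holds a single mouse at either 0 h or 3 d, so that within-campaign values have no error of their own.

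**Figure D5:**
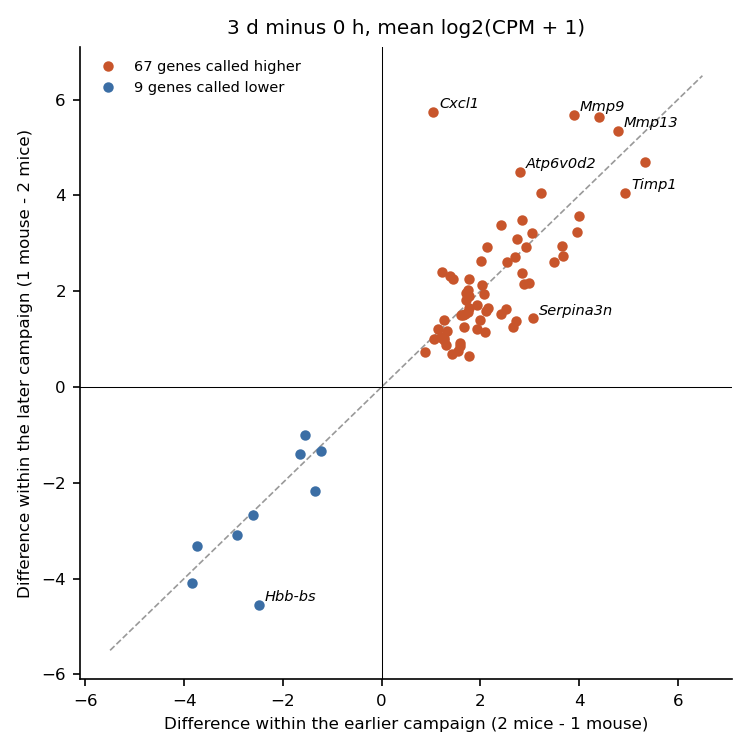
Difference of mean log2(CPM + 1), 3 d minus 0 h, in the earlier campaign (horizontal axis, 2 mice minus 1 mouse) and in the later campaign (vertical axis, 1 mouse minus 2 mice), for the 76 called genes. Cxcl1 lies far from the diagonal. The signs are the same on both axes because the mice of the 2 times do not overlap in any of these genes.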

How the data were processed

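Whole amputated digits of 30 mice at 9 time points were profiled by RNA-seq, and 6 mice (0 h and 3 d) enter the comparison, with those at 24 h and 7 d for its neighbours. Groups come from the time point in the labels. Replicate numbers follow sample order only. Expected counts per gene and TPM values were deposited by the authors, with 20321 genes. Per the labels the reads were processed with CASAVA 1.8.2 and RSEM 1.2.3 on build mm10. The study's methods name Bowtie with multiple hits allowed, so that reads of near-identical genes were shared out by estimation, and 78.1% of the expected counts were whole. A deposited table of averages per time point was not used.

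Expected counts were rounded, and edgeR 4.0.16 (R 4.3.3) was used with TMM scaling, filterByExpr, which kept 13793 genes with 99.9% of the counts, and the quasi-likelihood test over all 30 mice with time point as the group. P-values were adjusted by Benjamini-Hochberg over all tested genes, and 0.05 was the threshold. The scripts were tested on simulated data. DESeq2 1.42.0, other filters and scalings, campaign as a covariate, leaving out each mouse and log2(TPM + 1) were alternatives. All 30 libraries held 3167625 to 16277816 expected counts. Bounds against 0 use a floor of 3 counts in each library which allows for counting error alone, PCR copies of a molecule not being independent. Single values were compared by two-sided exact permutation tests, which cannot go below 0.1 with 3 mice against 3. No pair of replicates agreed within sampling noise. A chi-square per degree of freedom was computed between libraries. It was 18.2 for mice 1 and 2 at 0 h and 10.3 for mice 2 and 3 at 3 d. Both pairs lie within a campaign. For pairs across the campaigns it was 25.5 and 37.0 at 0 h and 55.3 and 45.8 at 3 d. The part of campaign in this was not tested and cannot be told apart from that of depth. The series' design text counts 30 mice, which were treated as independent, but mouse 3 at 0 h and a mouse at 12 h carry the same animal tag and date in their titles, and litters are not given. Sequences are from RefSeq and positions from GRCm38, the build of mm10.

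Any called gene could be named. Values in every mouse were given for the 15 genes with the largest rise at 5 CPM or more at 3 d, for all that fell and for members of gene lists (called ones first, then those with the highest level), and for the neighbouring times the 3 with the largest change in each direction. The groups, gene lists and named genes were chosen with earlier results of these data known. The lists were markers of neutrophils, monocytes and macrophages, T, B and mast cells, MHC class II and Langerhans cells, keratinocytes, nail and hair keratin, osteoblasts, osteoclasts, endothelium, skeletal muscle, adipocytes, Schwann cells, erythroid cells, melanocytes and fibroblasts, and genes of inflammatory cytokines, acute phase, wound keratins, EGF receptor ligands, proteases, provisional matrix, mitosis, DNA replication, AP-1, circadian clock, hypoxia, interferon, BMP and Wnt, and digit patterning.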

Additional observations from a re-analysis of the deposited data

Results flagged for a closer look

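Of 23 genes examined among the 6 mice at 7 d, a single mouse stood apart in 2. Cthrc1 was at 17.4 CPM in its lowest mouse at 7 d, against a median of 40.2 CPM and a highest value of 47.0 CPM. Il6 was at 13.2 CPM in its highest mouse at 7 d, against a median of 3.18 CPM and a lowest value of 1.27 CPM. The gap of each to its nearest neighbour exceeded Dixon's 95% critical value for 6 samples, which chance passes in about 1 in 20 groups. Groups of 3 mice, 0 h and 3 d included, were too small for this examination.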

How the results depend on the processing

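The count of 76 genes at 3 d against 0 h was 31 to 85 when a mouse was left out, 32 at an adjusted p under 0.01 and 161 with DESeq2 (144 higher, 17 lower). All 76 were among the 161. It was 78 to 88 with other size factors, filters, campaign as a covariate or the 6 mice alone, and 55 of the 76 were kept with the 6 mice alone. At 3 d against 24 h (9 genes) the count was 4 to 8 without a mouse, 5 at 0.01, 15 with campaign as a covariate, 5 with the mice of these times alone and 23 with DESeq2. At 7 d against 3 d (2 genes) it was 0 to 6 without a mouse, 1 at 0.01, 0 with the mice of these times alone (470 at an unadjusted p under 0.05) and 17 with DESeq2. The difference between campaigns (0 genes) gave 17 genes with no filter on low counts, 1 with DESeq2 and 0 without a mouse. The cause was not tested. Among named genes, 7 that were not called lay, within a campaign and in mean log2(CPM + 1), on the other side of 0 from their fitted log2 fold change: Mmp2 (-0.10), Col1a1 (-0.34), Sp7 (-0.53), Cxcr2 (0.084), Isg15 (0.33) and Tnfrsf11b (0.20) in the later campaign and Fosl2 (-0.069) in the earlier. When a mouse was left out, the log2 fold changes of 5 genes not called at 3 d against 0 h spanned 0: Col1a1 -0.11 to 0.96, Sp7 -0.21 to 0.71, Tnfrsf11b -0.35 to 0.22, Kif23 -0.21 to 0.054 and Isg15 -0.74 to 0.11. On the log2(TPM + 1) scale the median log2 fold change of the list neutrophil was 0.34, against 0.99 fitted by edgeR, and the median log2 fold change of the list skeletal muscle was -0.80, against -1.96. No paired analysis was possible because the labels give no replicate number that pairs mice. Depth limits genes with few counts at 0 h, such as Il6, S100a8 and Dcstamp.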

Other observations

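Genes of the circadian clock held no call among 19 tested (median log2 fold change 0.34), but 10 of them had mice that did not overlap, 7 above and 3 below. Per2, a repressor of the clock, measured 19.5, 16.4 and 18.1 CPM at 0 h and 59.6, 28.8 and 38.9 CPM at 3 d (log2 fold change 1.25, edgeR adjusted p = 0.447). Arntl, the activator on the opposite arm of the loop, measured 45.0, 40.4 and 53.3 CPM at 0 h and 22.1, 22.0 and 34.2 CPM at 3 d (log2 fold change -0.83, edgeR adjusted p = 0.347). Over all tested genes 8.16% lay above and 7.08% below in this way.

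Interferon-stimulated genes held no call among 18 tested (median 0.05). Isg15, a ubiquitin-like modifier, measured 3.44, 5.44 and 4.32 CPM at 0 h and 5.7, 1.47 and 3.64 CPM at 3 d, overlapping between the times. Ligands of the EGF receptor, which drive keratinocyte migration, held no call among 7 (median -0.25), and epiregulin, Ereg, measured 196, 163 and 271 CPM at 0 h and 153, 105 and 179 CPM at 3 d (log2 fold change -0.52, edgeR adjusted p = 0.861).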
